A study of Danio rerio with 12 samples.

Results

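The late shared p63 sites are regions of the zebrafish genome where p63 peaks were found at 24 and 36 hours post-fertilization (hpf) but not during gastrulation. They were selected on measured values: after all p63 peaks that shared at least 1 bp had been merged, a member had a peak in both lists of 24 hpf and both lists of 36 hpf, and in neither list of 80% epiboly. This gave 1085 members among 31197 p63 sites, a site being a region with a peak in both replicates of any stage, or 3.48% of them, and among 72866 merged p63 regions. The members made up 10.5% of the 10381 sites of 24 hpf, 13.4% of the 8117 sites of 36 hpf and 22.8% of the 4757 sites with a peak in all 4 later lists. Since p63 peaks chose the members, every p63 value of theirs is given as a description, with no test, and tests were run only on Sox3, which the choice did not use.

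Binding was profiled in whole embryos by ChIPmentation, a chromatin immunoprecipitation in which the Tn5 transposase adds the sequencing adaptors to the captured chromatin. p63 libraries came from wild-type (WT) embryos at 80% epiboly, 24 hpf and 36 hpf, with n = 2 per stage. Sox3 libraries came from WT embryos of 80% epiboly and 24 hpf (n = 1 for either stage) and, at 36 hpf, from WT and tp63 -/- embryos (n = 2 for either genotype). The mutants carry a small CRISPR/Cas9 deletion that truncates all isoforms of p63 in every cell, and their chromatin came from far fewer embryos than that of the other libraries. Embryos were pooled, so a site that only the skin uses and a site used weakly in many tissues cannot be told apart, nor can fewer cells and less binding per cell. No control library is stated for the peak calls, and a missing peak says only that a region did not pass the threshold in that library.

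p63 belongs to the p53 family and is required for the epidermal lineage: it is expressed in the non-neural ectoderm and in basal keratinocytes, where it activates genes of adhesion and keratins. It is also known as a factor that can bind closed chromatin and help to open enhancers. Sox3 is a SoxB1 factor of neural progenitors that helps to hold cells in the neural lineage, so the 2 proteins mark opposite sides of the border between skin and neural plate. Gastrulation at 80% epiboly precedes the layered epidermis that is present at 24 and 36 hpf.

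The lists differed in length. The p63 lists held 36652 and 42668 peaks at 80% epiboly, 14707 and 25659 at 24 hpf, and 16993 and 9538 at 36 hpf. The Sox3 lists held 6045 peaks at 80% epiboly, 67886 at 24 hpf, 51504 and 29082 in WT and 81578 and 59786 in mutants at 36 hpf. Membership therefore asked for absence from the longest p63 lists and presence in the shortest. By the paper's counts, uniquely mapped p63 reads were most numerous in the libraries of 80% epiboly and fewest in those of 36 hpf. The 36 hpf library with 9538 peaks had the fewest of all, a small part of its total reads. Stage and depth thus cannot be told apart for p63. Among Sox3 libraries, that of 80% epiboly had the fewest. The paper left out further Sox3 replicates of 80% epiboly and 24 hpf for low quality. Without replicate 1 of 24 hpf in the rule, 1753 regions qualified, and without the 36 hpf list of 9538 peaks 1485 did.

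The p63 peaks of the members varied widely in strength but did not reach the strongest peaks of each list. Fold enrichment, the tag pileup at the summit over the local background of the same library, ranged from 4.06 to 17.1 with a median of 7.18 in replicate 1 of 24 hpf, and from 3.72 to 18.9 with a median of 7.97 in replicate 2. At 36 hpf it ranged from 4.61 to 28.8 with a median of 12.1 in replicate 1, and from 4.82 to 33.3 with a median of 11.3 in replicate 2. Sites with p63 at all 3 stages reached 35.2 and 31.6 in the lists of 24 hpf and 35.3 and 36.7 in those of 36 hpf. Fold enrichment depends on the depth and background of each library, so these values do not compare the stages. The depth behind a typical member was modest: the median summit held 17 and 25 tags at 24 hpf and 27 and 15 tags at 36 hpf, over median local backgrounds of 1.49, 2.09, 1.22 and 0.37 tags.

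Ranks within a list describe a member against the other peaks of its own library. A percentile here is the share of the peaks of a list with a −log10 q (the significance of the peak after correction for multiple testing) no higher than that of the member. The median percentile of the members was 63.8 and 80.6 in replicates 1 and 2 of 24 hpf, and 77.7 and 60.1 in those of 36 hpf. Replicates of a stage differed, the median being higher in the longer list of either stage, so these percentiles compare classes within a list and not the stages. The sites of all 3 stages lay higher in each list, at 83.9, 91.1, 84.3 and 72.0. Sites with p63 at 24 hpf only had median percentiles of 42.0 and 54.5 and those at 36 hpf only 59.3 and 38.3, so in each list the members lay between the sites of 1 later stage and those of all stages. A site that has to pass in more lists is more likely to be strong in each, so this order follows in part from how the classes were chosen.

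**Figure D1:**
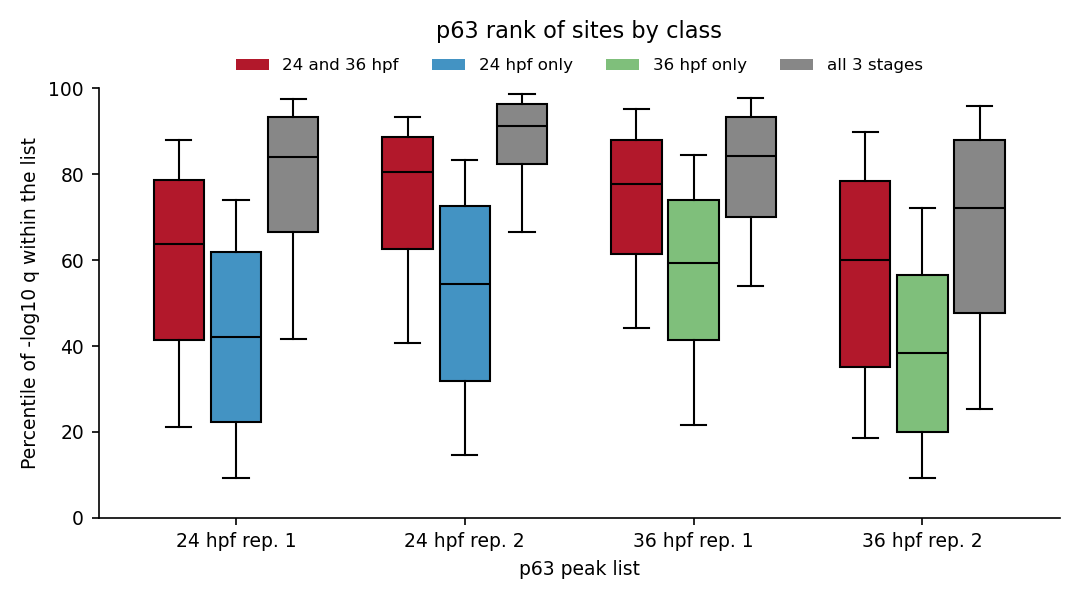
Percentile of −log10 q within each later p63 list (y axis) for the sites of 24 and 36 hpf (red), of 1 later stage only (blue or green) and of all 3 stages (grey); boxes show the quartiles with the median, whiskers the 10th and 90th percentiles. The medians of the late shared sites (63.8, 80.6, 77.7 and 60.1) lie below those of the sites of all 3 stages (83.9, 91.1, 84.3 and 72.0) in all 4 lists.

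Averaged over the 4 later lists, the percentile of a member ran from 16.9 to 98.4, with a median of 66.0 and quartiles of 53.9 and 77.6. 126 members (11.6%) reached the 75th percentile in all 4 lists, against 1095 (34.3%) of the 3194 sites of all 3 stages. 213 members (19.6%) reached it in no list, and 15 reached the 90th percentile in all 4. The class was thus broad, with a small upper group and no single level.

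Replicates of a stage ranked the members more alike than the stages did. Over the 1085 members, Spearman's rho was 0.55 between the replicates of 24 hpf and 0.73 between those of 36 hpf. Between a list of 24 hpf and a list of 36 hpf it was 0.21 to 0.27. The same pattern, at higher values, was seen for the sites of all 3 stages, with 0.78 and 0.83 within stages and 0.39 to 0.44 between them. These are correlations across sites, which are not independent replicates and are read from the same libraries.

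**Figure D2:**
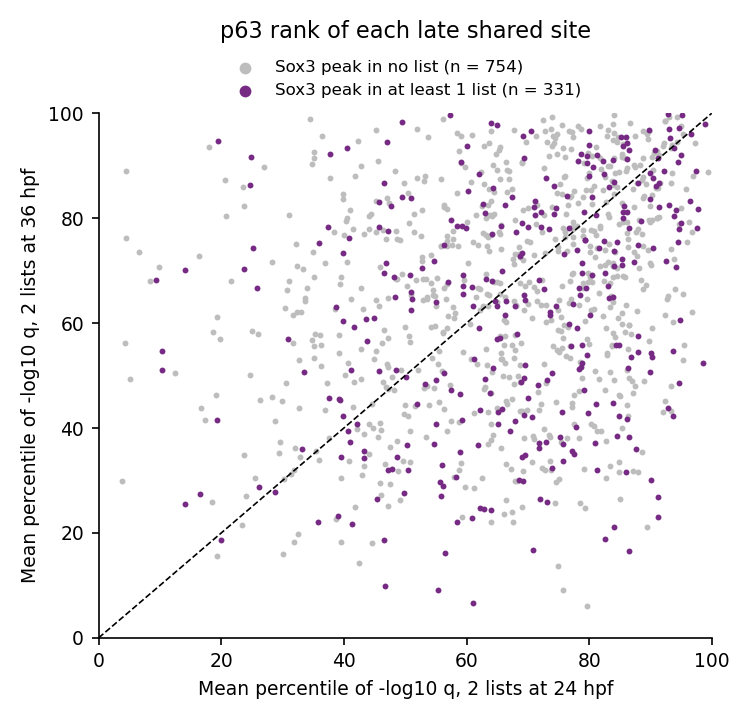
Mean percentile of −log10 q in the 2 lists of 24 hpf (x axis) and in the 2 lists of 36 hpf (y axis) for each late shared site; purple points are the 331 members with a Sox3 peak in at least 1 list, grey points the 754 with none, and the dashed line marks equal percentiles. The points scatter widely around the line, with a median difference of −1.06 percentile points (36 minus 24 hpf) and quartiles of −17.4 and 13.7.

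The 10 members with the highest mean percentile show what a strong late site looks like. The first, at chr12:41729001-41729583 (GRCz10), had a fold enrichment of 14.6 and 14.2 in replicates 1 and 2 of 24 hpf and 22.5 and 25.6 in those of 36 hpf, from 45, 54, 79 and 46 tags at the summit. It lay 193 kb from the nearest p63 site of 80% epiboly, and it carried Sox3 peaks in the list of 24 hpf (7.69-fold) and in WT replicate 1 of 36 hpf (7.12-fold), both of middling rank (percentiles 51.0 and 39.8). All 4 p63 libraries thus placed this region near the top, while Sox3 was found there in 2 of 6 libraries. The p63 summit lay at 41729381 in both lists of 24 hpf and at 41729273 and 41729272 in those of 36 hpf. The stages thus shared the region but not the summit.

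The second, chr24:10388614-10389086, reached 12.6- and 10.7-fold at 24 hpf and 27.8- and 33.0-fold at 36 hpf. Its only Sox3 peak, at 24 hpf, was 5.47-fold and lay at the 14.9th percentile of that list. The third, chr10:33669731-33670162, reached 10.2- and 11.7-fold and then 22.6- and 28.3-fold, with no Sox3 peak. The region chr24:2868438-2868928 had the highest rank at 36 hpf, at percentiles 99.8 and 99.8 with 100 and 79 tags at the summit, and stood at 88.7 and 97.0 at 24 hpf. It had Sox3 peaks in both WT libraries of 36 hpf (7.88- and 7.02-fold, percentiles 54.0 and 27.3) and in mutant replicate 1 (5.54-fold, percentile 15.1). Since the 10 were picked by their rank in all 4 lists, high p63 ranks at both stages follow from the choice.

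The other 6 of the 10 were chr25:30347264-30347758, chr8:8616699-8617039, chr21:9539355-9539764, chr8:54076986-54077329, chr19:133856-134429 and chr21:15528095-15528513. The region on chromosome 25 had Sox3 peaks at 24 hpf (7.69-fold, percentile 51.0), in WT replicate 2 (7.36-fold, percentile 29.2) and in mutant replicate 1 (6.63-fold, percentile 30.9). Of the 10, 6 had no peak in any Sox3 list (those on chromosomes 8, 10, 19 and 21). Distances from the 10 to the nearest p63 site of 80% epiboly ran from 8.47 kb, for the region on chromosome 19, to 193 kb, for that on chromosome 12.

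The members whose percentiles differed most between the lists of the stages are given as a description, since the lists differ in length. The largest gain was at chr18:38897211-38897471, which was at percentiles 2.10 and 6.85 at 24 hpf (4.78- and 4.85-fold) and at 93.3 and 84.8 at 36 hpf (20.5- and 17.8-fold). At chr4:13111984-13112382 the percentiles went from 9.77 and 26.1 to 95.4 and 91.8. Neither region had a Sox3 peak. The largest losses were at chr8:5830538-5830861, from 72.0 and 87.2 to 10.6 and 1.39, and at chr20:43413152-43413385, from 90.8 and 82.3 to 27.4 and 5.77. Both replicates lay on the same side in each of these 4 regions. They were picked as extremes of 1068 members on chromosomes 1 to 25, and the lowest peak of each region held 5 to 11 tags, so chance in counting enters them.

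The edges of the rule were soft. The lowest −log10 q among members was 3.72 and 3.82 in the lists of 24 hpf and 4.93 and 3.87 in those of 36 hpf, close to the limit of the peak calls, and 53 members had a value below 5 in replicate 1 of 24 hpf. Just outside, 1218 regions had a peak in 3 of the 4 later lists and none at 80% epiboly, with a median mean percentile of 52.1. Of these, 666 missed replicate 1 of 24 hpf and 400 missed replicate 2 of 36 hpf, the shortest list of each stage. A further 478 regions had all 4 later peaks and a peak in 1 of the lists of 80% epiboly. There the median −log10 q of the 80% epiboly peak was 7.70, at the 37.8th percentile of its list, while the median mean percentile in the later lists was 71.2. The class shades into its neighbours on both sides.

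Most members lay more than 5 kb from a gastrula p63 site. The distance was measured from the mean p63 summit of a member to that of the nearest site with a peak in both lists of 80% epiboly, and could be had for 1076 members (the other 9 lay on sequences without such a site). Its median was 19.2 kb, with quartiles of 8.49 and 46.3 kb and a range from 388 bp to 337 kb. Only 13 members (1.21%) lay within 1 kb of a gastrula site and 153 (14.2%) within 5 kb, while 828 (77.0%) lay within 50 kb and 992 (92.2%) within 100 kb. How far arbitrary positions of the genome lie from the 24806 gastrula sites was not computed. These distances therefore describe the members and do not set late binding apart from the density of gastrula sites.

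Other later sites lay at much the same distances. The median distance was 16.5 kb for sites of 24 hpf only and 17.2 kb for those of 36 hpf only, with 4.55% and 2.73% of them within 1 kb. For sites of all 3 stages, the nearest other gastrula site lay at a median of 10.3 kb, with 7.81% within 1 kb. Regions of the members were wider than those of 1 stage (median 352 bp against 224 and 240 bp). Those of all 3 stages were wider still (median 448 bp). A gastrula site that overlaps the region of a member removes it from the class, so width limits the smallest distances. Whether it accounts for the shares within 1 kb was not tested. For the same members the median was 9.14 kb where a peak in either list of 80% epiboly marked a gastrula site. It was 53.4 kb where all p63 lists were cut to equal length and 11.1 and 11.7 kb without replicate 1 or 2 of 80% epiboly, settings that also changed the members (to 1324, 1248 and 1400).

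**Figure D3:**
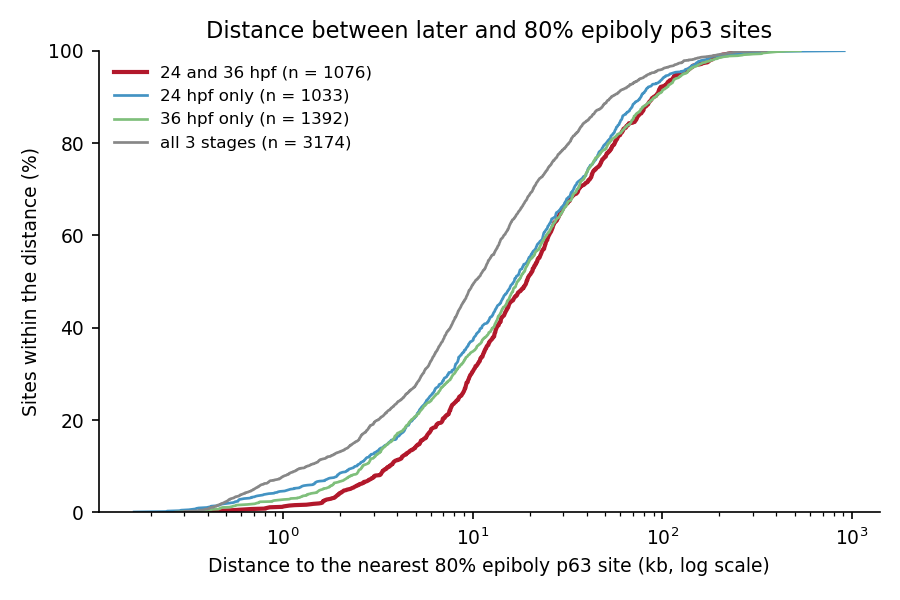
Share of sites (y axis, %) within a given distance (x axis, kb, log scale) of the nearest other p63 site of 80% epiboly, for the late shared sites and the comparison classes. The late shared sites (red, median 19.2 kb) run to the right of the sites of all 3 stages (grey, median 10.3 kb).

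The nearest members to gastrula binding were at chr14:30802318-30802656 (388 bp), chr6:54588917-54589187 (411 bp) and chr16:38586715-38587143 (424 bp). The gastrula neighbour of the region on chromosome 6 also had p63 at both later stages, and that of the region on chromosome 14 had p63 at 80% epiboly only. The latter pair thus lay side by side with p63 peaks called at different stages. The member of that pair was weak at 36 hpf, at percentiles 9.61 and 8.65 from 13 and 9 tags at the summit. The farthest members were at chr8:5830538-5830861 (337 kb), chr6:5115426-5115811 (337 kb) and chr6:5665271-5665949 (309 kb).

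Of the nearest gastrula sites, 188 (17.5%) had p63 in all 6 lists, 442 (41.1%) at 80% epiboly only and 446 (41.4%) in some of the later lists. Over all 24806 gastrula sites these shares were 12.9%, 45.2% and 41.9%. Between members, the median distance to the next was 327 kb, and 51 members (4.70%) had another within 10 kb. There was 1 run of 3 members with such steps, at chr5:42398566-42408632. The spacing of other p63 sites or of random positions was not computed, so these values do not say whether members cluster.

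Sox3 was found at a minority of the late shared sites. At 80% epiboly 2 of 1085 members had a Sox3 peak (0.18%, 95% Clopper-Pearson interval 0.022 to 0.66%), where 14.2% of all p63 sites did. At 24 hpf 254 members had one (23.4%, 20.9 to 26.0%), against 57.6% of all p63 sites. At 36 hpf in WT embryos 139 (12.8%) and 90 (8.29%) members had one, against 37.3% and 28.6%. In tp63 -/- embryos the counts were 174 (16.0%) and 137 (12.6%), against 50.2% and 46.8%. In each of the 5 later libraries the share among members was below the background share. So it was at 80% epiboly, where the rule bears on the contrast. Members have no p63 peak at that stage, while 79.5% of all p63 sites have one in both lists. The intervals cover counting error only, and the background holds every class of p63 site.

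**Figure D4:**
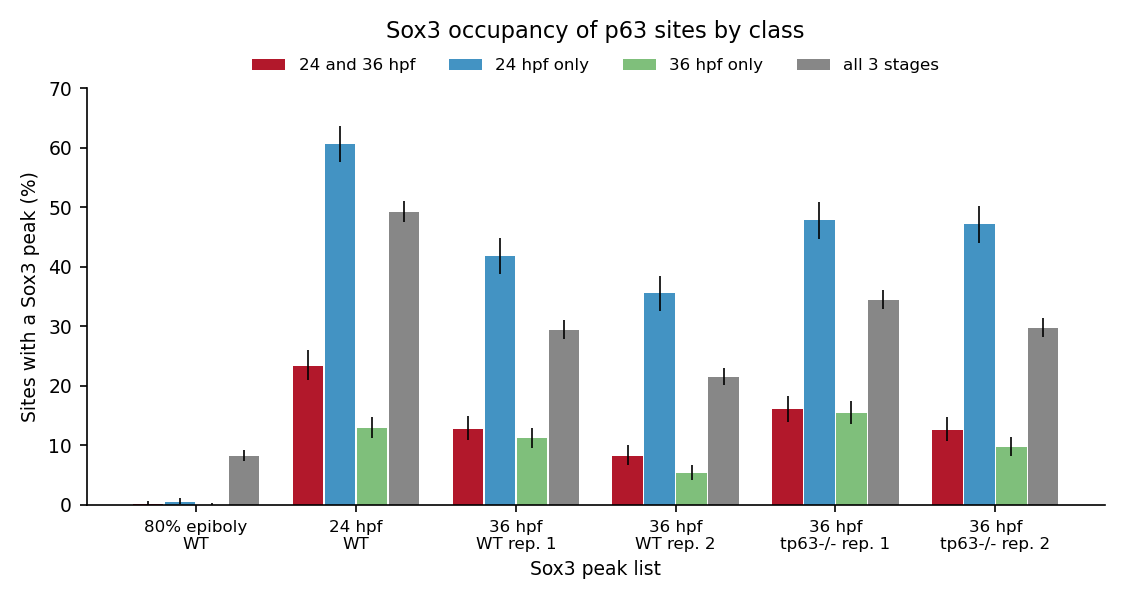
Share of p63 sites with a Sox3 peak (y axis, %) in each Sox3 library (x axis) for the late shared sites and the 3 comparison classes; bars are shares of sites, lines 95% Clopper-Pearson intervals. In the library of 24 hpf the late shared sites stand at 23.4%, those of 24 hpf only at 60.6%, those of 36 hpf only at 13.0% and those of all 3 stages at 49.3%.

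Taken over libraries, 754 members (69.5%) had no Sox3 peak in any list, against 34.7% of all p63 sites. By class, the share without a peak was 35.3% at sites of 24 hpf only, 44.3% at sites of all 3 stages and 76.9% at sites of 36 hpf only. 65 members (5.99%) had one in all 5 libraries of 24 and 36 hpf, against 24.9%. A peak at 24 hpf and in no other list was found at 104 members (9.59%), near the background of 8.62%. Of the 254 members with Sox3 at 24 hpf, 67 (26.4%) also had a peak in both WT libraries of 36 hpf, where the share was 54.5% at sites of 24 hpf only, 38.3% at sites of all 3 stages and 22.7% at sites of 36 hpf only. In the share without any Sox3 peak and in the share that kept it at 36 hpf, the late shared sites thus stood nearest to the sites of 36 hpf only.

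Other classes of p63 site were set beside the members to ask whether low Sox3 occupancy holds against other p63 sites in the same Sox3 libraries. The odds of a Sox3 peak were compared within each library as a log2 odds ratio, with 0.5 added to each count, and the libraries were the units of an exact two-sided sign-flip permutation test. The 3 tests were adjusted together by the Benjamini-Hochberg method. The libraries read the same sites and several share a stage, so these p-values measure only whether libraries point the same way.

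Against the 1044 sites of 24 hpf only, members carried Sox3 less often in all 6 libraries. The shares were 23.4% against 60.6% at 24 hpf, 12.8% against 41.9% and 8.29% against 35.5% in WT, 16.0% against 47.8% and 12.6% against 47.1% in mutants, and 0.18% against 0.48% (2 and 5 sites) at 80% epiboly. The mean log2 odds ratio was −2.22 ± 0.52 (SD, n = 6 libraries; exact permutation p = 0.03125, the smallest that 6 libraries allow; adjusted p = 0.0469). The log2 odds ratio of the library of 80% epiboly was −1.20 with a standard error of 1.10. Without that library the mean was −2.42 (exact permutation p = 0.0625). With 1 Sox3 library left out, the exact p cannot go below 0.0625. Leaving out a p63 library in turn gave −2.51 to −1.47. Members and sites of 24 hpf only differ in p63 rank and width. Among sites of both classes at percentiles 50 to 80 the mean was −2.33. With a Sox3 summit required within 100 bp of the mean later p63 summit it was −2.79. That summit is averaged over both stages for members and over 24 hpf alone for the other class, so the last value is not like for like.

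Against the 3194 sites of all 3 stages, members also carried Sox3 less often in each of the 5 later libraries, with 23.4% against 49.3% at 24 hpf, 12.8% against 29.4% and 8.29% against 21.6% in WT, and 16.0% against 34.5% and 12.6% against 29.8% in mutants. The mean log2 odds ratio was −1.55 ± 0.081 (SD, n = 5 libraries; exact permutation p = 0.0625, the smallest that 5 libraries allow, so the threshold of 0.05 could not be reached). In the library of 80% epiboly, left out because the rule bears on that stage, the shares were 0.18% and 8.23%.

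Against the 1396 sites of 36 hpf only, no stable difference was found. The shares of members were 23.4% against 13.0% at 24 hpf, 12.8% against 11.2% and 8.29% against 5.37% in WT, and 16.0% against 15.5% and 12.6% against 9.81% in mutants. At 80% epiboly they were 0.18% against 0.072% (2 and 1 sites), with the largest log2 odds ratio, 1.10, and a standard error of 1.49. The mean log2 odds ratio was 0.58 ± 0.43 (SD, n = 6 libraries; exact permutation p = 0.03125; adjusted p = 0.0469). It was 0.48 without the library of 80% epiboly (exact permutation p = 0.0625, the smallest that 5 libraries allow). Its direction turned to −0.17 with p63 lists of equal length, to −0.31 where a peak in either replicate sufficed and to −0.13 without replicate 2 of 36 hpf. Without replicate 1 or 2 of 80% epiboly it was 0.12 and 0.20, without replicate 1 of 24 hpf 0.30 and without replicate 1 of 36 hpf 0.35, none of them past the threshold.

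**Figure D5:**
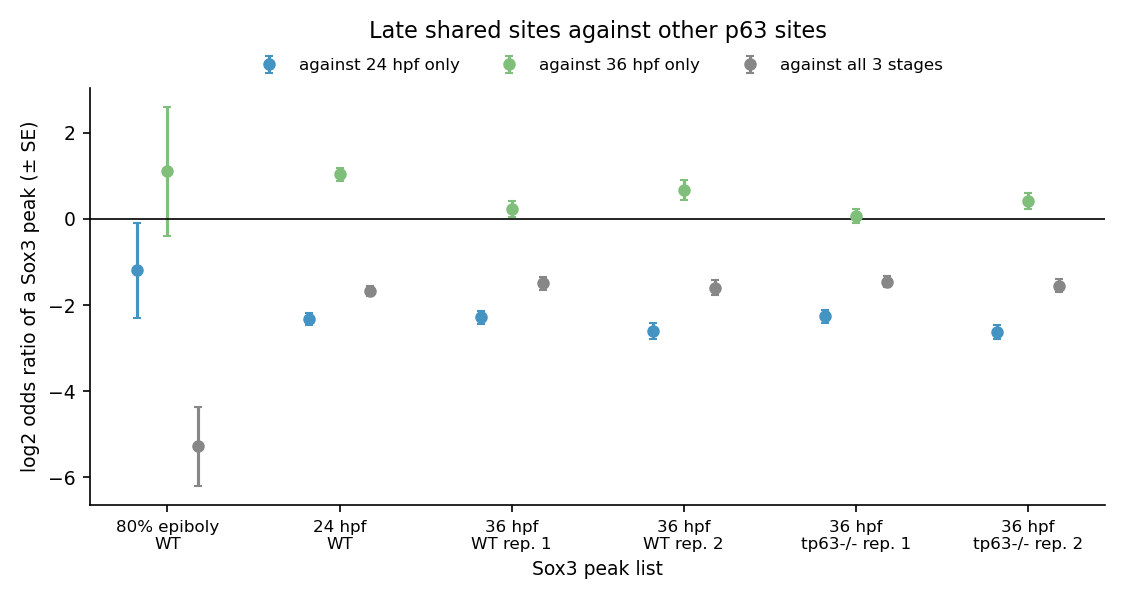
Log2 odds ratio of a Sox3 peak (y axis; bars are the standard error from the counts) at late shared sites against each comparison class in each Sox3 library (x axis); values below 0 mean fewer Sox3 peaks at late shared sites. The points against 24 hpf only (mean −2.22) and all 3 stages (−1.55 over the 5 later libraries) lie below 0 in every library, and those against 36 hpf only (mean 0.58) lie from 0.06 to 1.10.

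Whether loss of p63 changed Sox3 at these sites was asked at 36 hpf. The share of members with a Sox3 peak was 10.6% ± 3.19 (SD, n = 2) in WT and 14.3% ± 2.41 (SD, n = 2) in tp63 -/- embryos. Values of the genotypes overlapped, since WT replicate 1 (12.8%) lay above mutant replicate 2 (12.6%). The difference of 3.78 percentage points had an exact permutation p of 0.667, and 2 libraries against 2 cannot go below 0.333. With 1 Sox3 library left out the difference was 1.52 to 6.04 points. With the later Sox3 lists cut to the same 29082 strongest peaks, the shares were 7.93% and 8.29% in WT and 6.64% and 7.005% in mutants, so that the difference turned to −1.29 points. The mutant lists are the longest of 36 hpf, and genotype, number of embryos and list length cannot be told apart here.

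The other classes shifted by 8.76 points (24 hpf only), 4.37 points (36 hpf only) and 6.65 points (all 3 stages) between the same libraries. Set against sites of all 3 stages, the log2 odds ratio of the members was −1.55 ± 0.070 in WT and −1.50 ± 0.062 in mutants (SD, n = 2 each), a difference of 0.04 with an exact permutation p of 0.667. It was −0.0058 without WT replicate 2, and also just below 0 without mutant replicate 1 and without p63 replicate 2 of 24 hpf. No change particular to the late shared sites was detectable with these libraries.

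At single sites, a Sox3 peak in both mutant libraries and in neither WT library was found at 22 members (2.03%), against 7.94% of all p63 sites. The comparison classes were low too, with 1.86% at sites of 36 hpf only, 3.32% at sites of all 3 stages and 3.93% at sites of 24 hpf only. A low share was thus not particular to the members. The highest of the 22 members in p63 rank were chr18:50583788-50584056, chr12:8156068-8156491 and chr16:25851506-25851909. At the region on chromosome 18 the Sox3 peaks were 8.84- and 6.53-fold in mutants, and all 3 regions had a Sox3 peak in the WT library of 24 hpf as well (9.76-, 6.96- and 5.64-fold). The reverse pattern was found at 4 members (0.37%), against 0.128% of all p63 sites, a count too small to compare. Of these, chr19:2686456-2686819 had 7.72- and 8.72-fold Sox3 peaks in WT, chr17:11461462-11461833 had 6.92- and 8.03-fold peaks and chr20:43413152-43413385 had 7.98- and 5.65-fold peaks, from 8 to 15 tags at their summits.

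Of the 65 members with Sox3 in all 5 later libraries, the 3 highest in p63 rank are described here. They were not picked by Sox3 strength, and strong Sox3 sites were not counted. At chr19:25079171-25079624 Sox3 reached 19.7-fold at 24 hpf, 23.0- and 21.4-fold in WT and 22.2- and 21.4-fold in mutants at 36 hpf, with 70 to 137 tags at the summit and percentiles of 98.3 or above in each list, beside p63 at 10.1-, 9.06-, 23.8- and 23.5-fold. This region was high in both factors in all 9 later libraries, but their summits did not coincide. The Sox3 summits lay at 25079271 to 25079324. The p63 summits lay at 25079396 and 25079391 at 24 hpf and at 25079506 and 25079518 at 36 hpf. Each Sox3 summit was thus more than 100 bp from the mean p63 summit. At chr18:12751267-12751689 Sox3 was 11.3- to 15.7-fold, at percentiles 71.8 to 86.8. At chr2:25777720-25778058 it was 6.59- to 12.6-fold, at percentiles 42.3 to 86.3. It was thus of middling rank there in WT replicate 1 of 36 hpf, the lowest of these.

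Both members with a Sox3 peak at 80% epiboly also had one in all 5 later libraries. At chr10:21272174-21272598 Sox3 was 7.77-fold at 80% epiboly, from 9 tags, then 16.2-fold at 24 hpf, 19.0- and 21.4-fold in WT and 19.8- and 21.2-fold in mutants. There p63 was among the lower members, at percentiles 69.8 and 54.5 at 24 hpf and 36.7 and 12.8 at 36 hpf. At chr6:23725940-23726502 Sox3 was 7.44-fold at 80% epiboly and 7.17- to 11.3-fold later. These were regions where a Sox3 peak was seen before a p63 peak. The 2 Sox3 summits of 80% epiboly lay a median of 184.5 bp from the mean of the later p63 summits, with 0 within 100 bp.

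Where a Sox3 peak was present, its summit lay a median of 58 bp from the p63 summit at 24 hpf, with 70.1% of the 254 pairs within 100 bp, and 76.8 and 97.4 bp in WT and 79.6 and 85.3 bp in mutants at 36 hpf. At sites of 24 hpf only the median was 42 bp at 24 hpf and 45 to 50 bp at 36 hpf, and at sites of 36 hpf only 63 bp and 57.5 to 86.5 bp. Only Sox3 peaks that overlap a region count, so region width limits how large these distances can be. The regions of members were wider (median 352 bp against 224 and 240 bp). Sites of all 3 stages were wider still (median 448 bp), with median distances of 45 bp at 24 hpf and 54.5 to 62.5 bp at 36 hpf. Whether width or the averaging of p63 summits accounts for the differences between classes was not tested. The Sox3 peaks at members were of middling strength, with median percentiles of 48.2 at 24 hpf and 54.7 to 59.9 at 36 hpf, where those at sites of 24 hpf only stood at 81.9 and at 76.7 to 83.9, and those at sites of 36 hpf only at 39.2 and at 29.2 to 48.8. In each later library the members lay between these classes in Sox3 strength.

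Split into 3 parts by mean p63 percentile, members carried Sox3 at 24 hpf in 26.0% (21.6 to 30.9%), 20.8% (16.7 to 25.3%) and 23.4% (19.2 to 28.1%) of cases from lowest to highest. At 36 hpf the shares in the same order were 14.1%, 12.5% and 11.8% in WT replicate 1, 9.97%, 7.76% and 7.16% in WT replicate 2, 17.2%, 13.9% and 17.1% in mutant replicate 1 and 15.8%, 10.8% and 11.3% in mutant replicate 2. The shares fell with p63 rank in both WT libraries and were lowest in the middle part at 24 hpf and in both mutant libraries, and within each library the intervals overlap. By distance, 15.7% (10.3 to 22.4%) of the 153 members within 5 kb of a gastrula p63 site had Sox3 at 24 hpf, beside 23.5% (19.4 to 28.0%) from 5 to 20 kb, 25.1% (20.1 to 30.6%) from 20 to 50 kb and 25.4% (20.1 to 31.3%) beyond 50 kb. At 36 hpf the shares of the first 3 bins were 7.84%, 14.75% and 10.5% in WT replicate 1 and 5.88%, 9% and 5.09% in WT replicate 2. They were 11.1%, 16.5% and 14.5% in mutant replicate 1 and 10.5%, 14.5% and 9.09% in mutant replicate 2. The share was higher again beyond 50 kb in each of these libraries, so the steady rise of 24 hpf was not seen at 36 hpf. The intervals of neighbouring bins overlap, and no test was run on these splits, which were made within the members.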

How the data were processed

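p63 and Sox3 binding was analysed from 12 peak lists, 1 per library, in 5 groups of 2 libraries and 2 groups of 1, as in the labels. Per the labels and methods, the authors aligned reads with Bowtie to GRCz10 (danRer10) and called peaks with MACS2 for each library separately at a false discovery rate of 0.001. Versions of both tools are not given in the sources used here. The deposited columns used were fold enrichment (a ratio of summit pileup to local background, each with 1 added), −log10 p-value, −log10 q-value and the summit offset. None is scaled between libraries, so levels were compared within a list only. The −log10 values grow with depth, as does the deposited score, a whole-number form of the −log10 q value that was not used. Summit tags and local background were recovered from the fold enrichment and −log10 p of each peak through the Poisson p-value that MACS2 computes (largest error 1.67e-04 in −log10 p).

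Peaks sharing at least 1 bp were merged. A Sox3 peak sharing 1 bp with a region counted as present. Classes at 24 hpf only and 36 hpf only had peaks in both lists of that stage and in no other p63 list, and sites of all 3 stages had peaks in all 6. Where a region held several peaks of a list, that with the highest −log10 q was used. Analyses used Python 3.11.15, NumPy 2.4.6 and SciPy 1.17.1 and were tested on simulated data. The members, classes and alternatives were chosen with earlier results of these data known. 2 alternatives were added after seeing the lists: a Sox3 summit within 100 bp of the mean later p63 summit, and sites at p63 percentiles 50 to 80. Regions named were, on chromosomes 1 to 25 and by mean p63 percentile, the 10 highest members, the 3 highest of each Sox3 pattern, both members with Sox3 at 80% epiboly, the 3 nearest to and farthest from a gastrula site, and the 2 largest gains and losses of percentile. The run of 3 members was named after it was found. Replicates are described as biological. The sign-flip p-values over Sox3 libraries measure only whether libraries of mixed stage and genotype point the same way. Those of the genotype comparison set 2 libraries against 2. Genes near the sites, gene lists, motifs and sequences were not analysed here.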

Additional observations from a re-analysis of the deposited data

How the results depend on the processing

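Peak lists limit what can be seen: weak binding below the threshold is not listed, list length differs between libraries, and regions close to the threshold enter or leave the class. The number of members was 667 with −log10 q of at least 10 and 3008 with a peak in either replicate, and 1136 to 1753 with 1 p63 library left out. Leaving out 1 library gave −2.51 to −1.47 for the log2 odds ratio against 24 hpf only, −0.13 to 0.69 against 36 hpf only, 11.1 to 19.4 kb for the median distance, and −0.0058 to 0.094 for the genotype difference in log2 odds ratio. Against 36 hpf only the value was 0.35 with a fold enrichment of at least 5, 0.22 with −log10 q of at least 10, −0.17 with p63 lists of equal length, −0.31 with a peak in either replicate, 0.16 with a Sox3 summit within 100 bp and 0.35 at p63 percentiles 50 to 80. Against all 3 stages it was −2.18 with all 6 Sox3 lists (exact permutation p = 0.03125). That setting adds the library of 80% epiboly (log2 odds ratio −5.28), where the rule bears on the contrast, so its p-value adds no support. With later Sox3 lists of equal length the genotype difference was −1.29 points in share and −0.12 in log2 odds ratio. The median p63 percentile was 81.5 with −log10 q of at least 10, 76.5 with p63 lists of equal length and 54.3 with a peak in either replicate. The median distance was, in the same order, 37.3, 53.4 and 8.98 kb, and it was 22.5 kb with a fold enrichment of at least 5, 21.1 kb with an overlap of at least 50% and 9.14 kb where either list of 80% epiboly marked a site. The cause of these shifts was not tested. With a replicate block the genotype difference stayed at 3.78 points (exact permutation p = 0.5, the smallest that 2 pairs allow) and 0.04 in log2 odds ratio. Nothing in the labels says that replicate numbers mark shared embryos.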

Other observations

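The members were spread over all 25 chromosomes. As a share of the p63 sites with a peak in all 4 later lists, they ran from 15.3% on chromosome 2 (31 of 203) to 30.2% on chromosome 18 (65 of 215) and 30.0% on chromosome 10 (48 of 160). The chromosomes were ranked after their values were seen, and no test was run. 17 members (1.57%) lay on sequences outside chromosomes 1 to 25.

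Members with Sox3 at 36 hpf and not at 24 hpf numbered 77 (7.10%), beside 7.09% of all p63 sites. At sites of 36 hpf only the share was 10.1% (141 of 1396), and at sites of 24 hpf only 4.02% (42 of 1044). For these values the p63 rule and the stage of the Sox3 library are related, and they are given as a description.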
